A study of Mus musculus with 6 samples.

Results

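Maf, Mafa, Etv1, Etv4, Etv5, Shox2, Pou4f2, Pou4f3 and Meis2 encode transcription factors grouped here as factors of neuron subsets in the dorsal root ganglion (DRG). These 9 genes form a list given by name, and all 9 were found by Ensembl identifier among the 47937 rows of the deposited read count table. The libraries came from total RNA of DRGs taken at cervical, thoracic and lumbar levels from C57BL/6 mice aged about 2 months. Each of the 2 groups had 3 mice. Control DRGs came from mice labelled wild type, without a conditional deletion. Tlx3cko DRGs came from mice of the genotype Tlx3f/f;SNS-cre, which carry floxed alleles of the homeobox gene Tlx3 and a Cre driven by the promoter of Nav1.8, a sodium channel of most nociceptors. Neurons in which this promoter is silent keep their Tlx3 alleles, so the model does not delete Tlx3 from every DRG neuron. The comparison asks which of these factors differ in abundance in DRGs whose nociceptors lost Tlx3.

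Sensory neurons of the DRG divide into low-threshold mechanoreceptors (LTMRs) for touch, proprioceptors for limb position, and nociceptors and pruriceptors for pain and itch, and each class is set up by its own combination of transcription factors. The large Maf proteins (basic leucine zipper factors), the homeobox protein Shox2 and the TALE homeobox protein Meis2 are best known there from touch neurons. Etv1, Etv4 and Etv5 form the PEA3 group of Ets factors and are switched on by neurotrophic factors, Etv1 being required for the development of proprioceptors. Pou4f2 and Pou4f3, also called Brn3b and Brn3c, are paralogues of the general sensory neuron factor Pou4f1 (Brn3a).

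The libraries held between 11458299 and 18775628 counts. Tlx3 itself was still present in Tlx3cko libraries (1717, 1052 and 1475 counts in replicates 1, 2 and 3, against 1828, 2262 and 2433 in control). After scaling, every Tlx3cko value of Tlx3 was below every control value, and its call (edgeR adjusted p = 0.0122) was lost on leaving out control replicate 2 or either of Tlx3cko replicates 2 and 3, and with sex as a covariate (edgeR adjusted p = 0.223). Xist was counted 591 and 493 times in control replicates 1 and 2, which lacked Y-linked counts, and at most 2 times in the other 4 libraries, which had between 454 and 857 Y-linked counts. Sex was therefore not balanced between the groups, and control replicate 3 was the only control library of the sex found in the Tlx3cko group. Normalized counts below are counts scaled by TMM factors to the mean effective library size of 14970767. Adjusted p comes from the edgeR quasi-likelihood test fitted to 20006 genes, and 0.05 was the threshold.

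Of the 9 genes, 1 fell and 1 rose in Tlx3cko DRGs past the threshold, and 7 did not pass. Pou4f2 was reduced to 55.4% of its control level, and Meis2 reached 1.76 times its control level. The background was 4.25% of all genes tested (851 of 20006), of which 2.56% of the genes tested were lower and 1.69% were higher. By sign alone, 6 of the 9 fold changes were above 0 and 3 were below. For 6 of the 9, control and Tlx3cko values were fully separated, against 19.7% of all genes tested. The median log2 fold change was 0.28 over the 9 genes and -0.0036 over all genes tested, and the median size regardless of sign was 0.51 and 0.18. In bulk RNA, fewer cells of a type and less RNA per cell cannot be told apart.

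Promoter sequence is shown for Pou4f2 and Meis2, the genes that passed the threshold. Each stretch is the 250 bases before a start site in RefSeq (GRCm38.p6), written along the gene's own strand. Capitals mark the letters TATAA, the core of the TATA box, searched on both strands. The Pou4f2 stretch lies at chr8:78436648-78436897 and the Meis2 stretch at chr2:116064620-116064869, both on the minus strand. The Pou4f2 stretch lies just outside its gene model, which ends at 78436645. That of Meis2 lies inside its gene model, which ends at 116065839, so it precedes an internal start site. Meis2 has 19 annotated transcripts, and the 2 stretches are not equivalent in place.
Pou4f2: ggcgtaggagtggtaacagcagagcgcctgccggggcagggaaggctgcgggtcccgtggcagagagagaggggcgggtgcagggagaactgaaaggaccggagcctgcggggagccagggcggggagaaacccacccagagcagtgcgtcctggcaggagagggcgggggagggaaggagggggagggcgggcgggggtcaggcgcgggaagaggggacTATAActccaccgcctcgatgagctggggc
Meis2: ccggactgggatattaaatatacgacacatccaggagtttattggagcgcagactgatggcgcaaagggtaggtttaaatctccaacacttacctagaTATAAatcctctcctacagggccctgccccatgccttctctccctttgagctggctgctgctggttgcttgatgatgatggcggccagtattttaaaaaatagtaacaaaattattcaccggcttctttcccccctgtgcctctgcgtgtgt
The match in Pou4f2 begins 30 bases before the start site and that in Meis2 begins 152 bases before it. Matches to TATAA stood in 22.8% of 32851 such windows. The Pou4f2 stretch is 70.8% G and C with 17 CpG dinucleotides, and the Meis2 stretch is 47.6% G and C with 7, beside a median of 52.4% over all windows. Neither stretch held TGCTGA (a Maf half-site), CGGAAG (an Ets core), TAATTA (a homeobox core) or TGACAG (a Meis core) on either strand. These letters occurred in 16.1%, 13.6%, 4.8% and 15.9% of all windows. Promoter windows were used for 5 of the 9 genes, the others being Etv1, Etv5 and Shox2.

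Pou4f2 (ENSMUSG00000031688, chromosome 8, 78433010 to 78436645, minus strand) is best known as a factor of retinal ganglion cells. Its normalized counts were 344, 411 and 472 in control replicates 1, 2 and 3, and 218, 222 and 241 in Tlx3cko replicates 1, 2 and 3. All 3 Tlx3cko libraries were below the lowest control library, and they were much closer to each other than the controls were. The means were 409 ± 64.0 for control against 227 ± 12.6 for Tlx3cko (SD, n = 3 each), with a log2 fold change of -0.85 ± 0.14 (SE, edgeR adjusted p = 0.00302). Against control replicate 3 alone, the library matched in sex, the log2 ratio of the Tlx3cko mean was -1.06. Pou4f2 stayed past the threshold in all 14 alternative fits, with log2 fold changes between -1.06 and -0.74.

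Pou4f3 (ENSMUSG00000024497, chromosome 18, 42394539 to 42397249), which is needed for the hair cells of the inner ear, had the opposite sign. Its normalized counts reached 597, 533 and 498 in control libraries, and 694, 665 and 627 under Tlx3cko. The groups did not overlap, but the gap between them was small beside the spread within each. The log2 fold change, 0.29 ± 0.11 (SE), did not pass the threshold (edgeR adjusted p = 0.189). The ratio of Pou4f2 to Pou4f3 counts within a library was 0.577, 0.772 and 0.949 in the controls and 0.313, 0.333 and 0.385 in Tlx3cko libraries. Pou4f1, the most abundant of the family, had 4578 ± 173 normalized counts in control against 4032 ± 35.1 under Tlx3cko (SD, n = 3 each, edgeR adjusted p = 0.206). In reads per exonic kilobase, Pou4f1 made up 73.5% ± 0.897 of the family in control and 71.3% ± 0.685 in Tlx3cko DRGs. Pou4f2 made up 9.58% ± 1.52 and 5.85% ± 0.350, and Pou4f3 17.0% ± 1.73 and 22.8% ± 1.03 (SD, n = 3 each, description without a test).

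**Figure D1:**
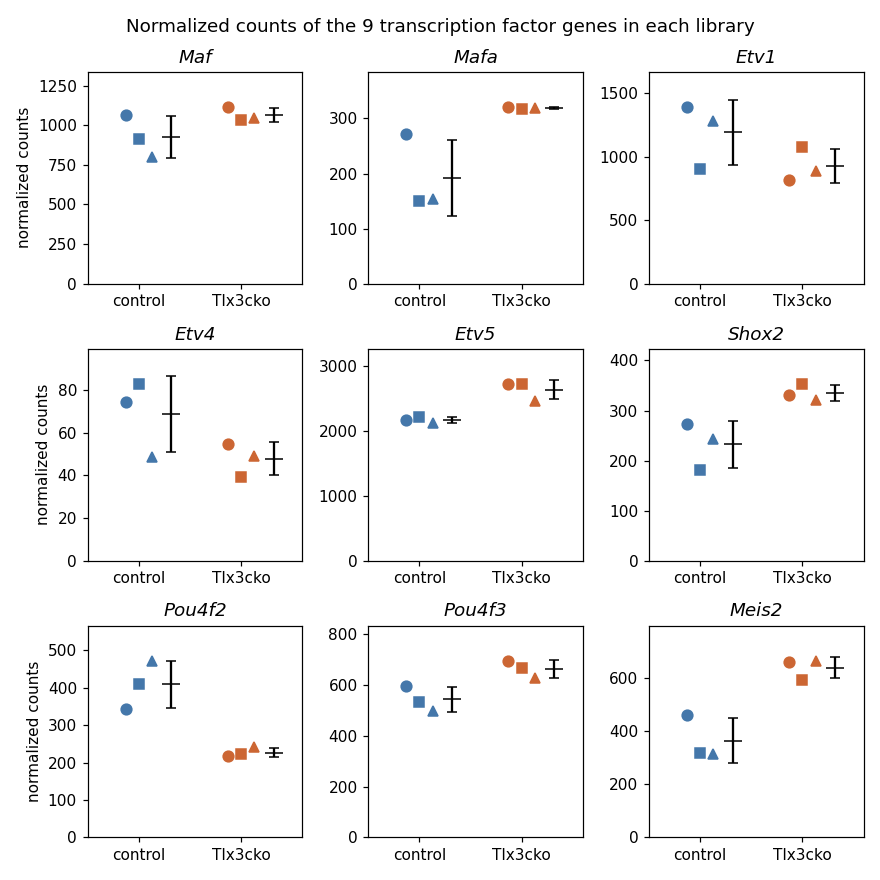
Normalized counts (y axes, each from 0) of the 9 genes in the 3 control (blue) and 3 Tlx3cko (orange) libraries, with circles, squares and triangles for replicates 1, 2 and 3 and black marks for the mean ± SD. Pou4f2 lies between 344 and 472 in control and between 218 and 241 in Tlx3cko libraries, while Meis2 lies between 313 and 463 in control and between 596 and 666 in Tlx3cko libraries.

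Meis2 (ENSMUSG00000027210, chromosome 2, 115863064 to 116065839, minus strand) encodes a cofactor of Hox and Pbx proteins. Its normalized counts were 463, 319 and 313 in control replicates 1, 2 and 3, and 661, 596 and 666 in the Tlx3cko replicates. Control replicate 1 was the highest control, yet it lay below all 3 Tlx3cko libraries. The means were 365 ± 84.8 in control and 641 ± 39.3 in Tlx3cko DRGs (SD, n = 3 each), with a log2 fold change of 0.82 ± 0.15 (SE, edgeR adjusted p = 0.00534). Without control replicate 1 the log2 fold change was 1.02 (edgeR adjusted p = 0.000438), and against control replicate 3 alone the log2 ratio was 1.03. Meis2 kept its call in all 14 alternative fits.

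The paralogues of Meis2 did not pass the threshold. Meis1 had 63.1 ± 4.30 normalized counts in control against 95.2 ± 8.80 under Tlx3cko, and its groups did not overlap (log2 fold change 0.60, edgeR adjusted p = 0.164). Meis3 had 339 ± 22.6 and 307 ± 53.6 normalized counts, with overlapping groups. Within the family, Meis2 took 21.1% ± 3.23 of reads per exonic kilobase in control and 33.7% ± 3.30 in Tlx3cko DRGs, and Meis3 took 74.7% ± 2.73 and 60.6% ± 3.74 (SD, n = 3 each). These shares rest on the gene length used. With the longest coding transcript, which for Meis2 is 3718 bases against 12043 exonic bases in all, Meis2 took 33.5% in control and 49.2% in Tlx3cko DRGs.

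**Figure D2:**
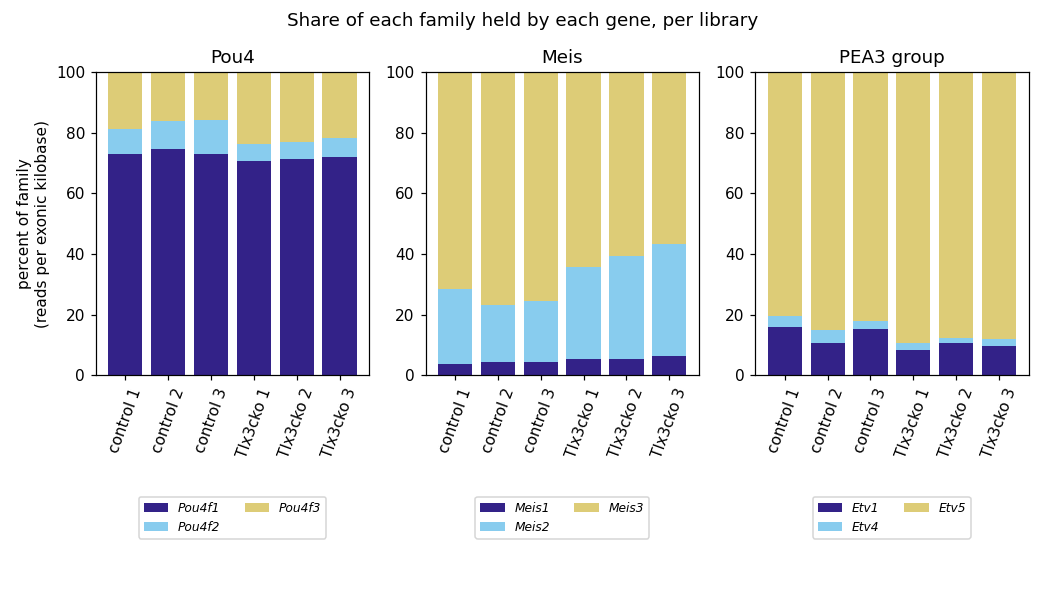
Percent of each family's reads per exonic kilobase (y axis, 0 to 100) held by each gene in each of the 6 libraries (bars). In the Tlx3cko bars Meis2 is wider (30.4% to 37.0%, against 18.5% to 24.7% in control) and Pou4f2 narrower (5.56% to 6.24%, against 8.19% to 11.2%).

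Among the large Maf genes, no member passed the threshold. Maf (ENSMUSG00000055435, chromosome 8, 115682942 to 115707794, minus strand), whose product c-Maf is needed for the development of touch receptors, measured 1063, 912 and 799 in control libraries and 1114, 1031 and 1048 in Tlx3cko libraries, as normalized counts. Control replicate 1 lay inside the range of the Tlx3cko libraries. The log2 fold change was 0.21 ± 0.11 (SE, edgeR adjusted p = 0.425). An antisense gene, Gm15655, lies over 5.34% of the exonic bases of Maf. Whether the counting used strand is not given in the sources used here, so reads there cannot be told apart.

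Mafa (ENSMUSG00000047591, chromosome 15, 75745490 to 75748228, minus strand), which is also an activator of the insulin gene in the pancreas, had the more widely spread controls. Its normalized counts were 272, 151 and 154 in control replicates 1, 2 and 3, and 320.5, 318 and 319 in Tlx3cko replicates 1, 2 and 3. The Tlx3cko libraries were nearly equal and lay above all controls, of which replicate 1 came closest to them. The means were 192 ± 69.1 in control and 319 ± 1.47 in Tlx3cko DRGs (SD, n = 3 each). The log2 fold change, 0.74 ± 0.20 (SE), narrowly missed the threshold (edgeR adjusted p = 0.0607). Without control replicate 1 the log2 fold change was 1.06 and passed (edgeR adjusted p = 0.00131), and over all 14 alternatives the adjusted p ranged from 0.000217 to 0.223, with 5 past the threshold.

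Nrl, a large Maf gene known from rod photoreceptors, had between 0 and 9 counts per library, and no difference was detectable at this depth. Of the small Maf genes Maff, Mafg and Mafk, none passed the threshold in this edgeR fit (1 at an unadjusted p under 0.05, 0 with DESeq2 and limma-voom), with log2 fold changes of 0.08, -0.23 and -0.14.

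The PEA3 genes did not share a sign. Etv5 (ENSMUSG00000013089, chromosome 16, 22381309 to 22439719, minus strand), which DRG neurons and satellite glia both express, measured 2165, 2213 and 2116 in control libraries and 2715, 2720.2 and 2461 in Tlx3cko libraries, as normalized counts. The groups did not overlap, and the controls were tightly grouped. The means were 2165 ± 48.4 and 2632 ± 148 (SD, n = 3 each). Its log2 fold change, 0.28 ± 0.08 (SE), narrowly missed the threshold (edgeR adjusted p = 0.0558). Over the 14 alternatives the adjusted p of Etv5 ranged from 0.0159 to 0.242, with 3 past the threshold.

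Etv1 (ENSMUSG00000004151, chromosome 12, 38779380 to 38870484, plus strand) had 1388, 903 and 1281 normalized counts in control replicates 1, 2 and 3, and 816, 1077 and 889 in the Tlx3cko replicates. Control replicate 2 lay inside the Tlx3cko range, so the groups overlapped. The log2 fold change was -0.36 ± 0.15 (SE, edgeR adjusted p = 0.260), and without control replicate 2 it was -0.53 (edgeR adjusted p = 0.0409; the range over the alternatives was 0.00890 to 0.524). Etv4 (ENSMUSG00000017724, chromosome 11, 101769742 to 101785371, minus strand), known as a target of nerve growth factor signaling in nociceptors, was the least abundant of the 9. Its raw counts were only 69, 83 and 61 under control and 57, 30 and 50 under Tlx3cko. The normalized means were 68.6 ± 17.8 and 47.8 ± 7.84 (SD, n = 3 each), and control replicate 3 lay inside the Tlx3cko range. The log2 fold change was -0.51 ± 0.27 (SE, edgeR adjusted p = 0.453), and with sex as a covariate it came to -0.017 (edgeR adjusted p = 0.994). Within the PEA3 group, Etv5 took 82.6% ± 2.35 of reads per exonic kilobase in control and 88.3% ± 0.920 in Tlx3cko DRGs (SD, n = 3 each). With the longest coding transcript as the length, Etv5 took 72.3% in control and 80.4% in Tlx3cko DRGs.

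Shox2 (ENSMUSG00000027833, chromosome 3, 66971727 to 66981771, minus strand) is needed for the expression of the neurotrophin receptor TrkB in touch neurons. Its normalized counts reached 273, 181 and 243 in control libraries, and 330.1, 353 and 322 under Tlx3cko, without overlap. The means were 232 ± 47.2 and 335 ± 16.1 (SD, n = 3 each), and the log2 fold change, 0.53 ± 0.15 (SE), did not pass the threshold (edgeR adjusted p = 0.0857). Without control replicate 1 it was 0.65 (edgeR adjusted p = 0.0408), while the adjusted p over all 14 alternatives ranged from 0.0148 to 0.502. Ntrk2, which encodes TrkB, had 3030 ± 270 normalized counts in control against 3353 ± 184 under Tlx3cko, with overlapping groups. The gene Rsrc1 on the other strand lies over 4.62% of the exonic bases of Shox2, and had 606 ± 40.7 and 598 ± 64.5 normalized counts.

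**Figure D3:**
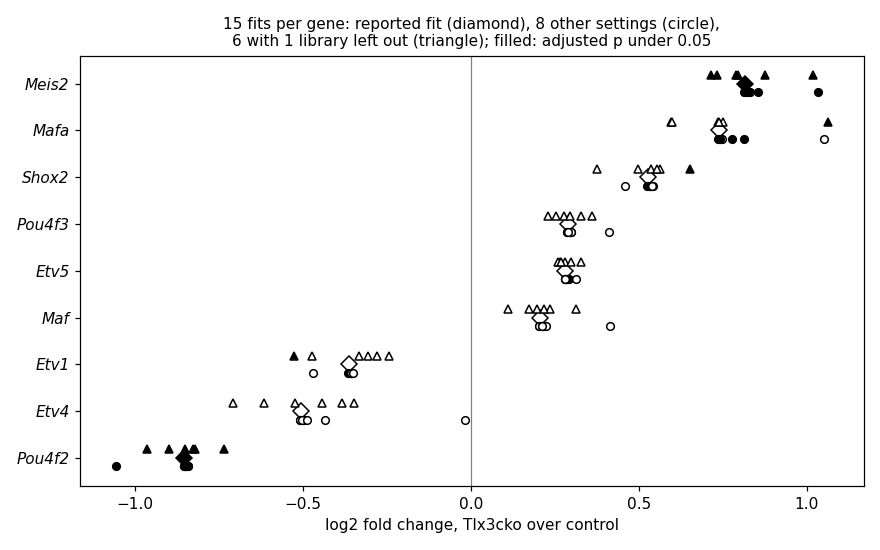
Log2 fold change of Tlx3cko over control (x axis) for the 9 genes (rows) in the reported fit (diamond), 8 fits with another setting (circles) and 6 fits without 1 library (triangles), filled where the adjusted p was under 0.05. Meis2 (0.72 to 1.03) and Pou4f2 (-1.06 to -0.74) are filled in every fit, Mafa, Shox2, Etv5 and Etv1 in some, and Maf, Pou4f3 and Etv4 in none.

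Per gene length, the 9 genes spanned a range of levels. In reads per exonic kilobase, scaled to library size, Etv5 was highest in control DRGs at 35.2 ± 0.789, followed by Pou4f3 at 15.1 ± 1.40 and Pou4f2 at 8.53 ± 1.33 (SD, n = 3 each). Then came Maf at 7.49 ± 1.07, Etv1 at 5.98 ± 1.28, Mafa at 4.69 ± 1.69, Shox2 at 4.69 ± 0.953, Meis2 at 2.03 ± 0.470 and Etv4 at 1.48 ± 0.383. From Pou4f2 down to Shox2, the replicate ranges of neighbors in this order overlapped, as did those of Meis2 and Etv4. Such overlap does not show equal levels, since the genes were measured in the same libraries and were not compared within each library. In Tlx3cko DRGs Pou4f2 stood at 4.73 ± 0.262, below Maf (8.63 ± 0.352), Mafa (7.78 ± 0.0359) and Shox2 (6.76 ± 0.326), and overlapped only Etv1 (4.66 ± 0.677) among its neighbors. The places of Pou4f2, Etv1, Mafa and Meis2 depend on the length used, since by the longest coding transcript the order in control DRGs began with Etv5, Pou4f3, Etv1, Maf and Pou4f2, followed by Meis2, Shox2, Mafa and Etv4.

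Control replicate 1 had the highest control value for Maf, Mafa, Etv1, Shox2, Pou4f3 and Meis2, and the lowest for Pou4f2. Compared with control replicate 3 alone, the log2 ratio of the Tlx3cko mean was 1.05 for Mafa, 0.46 for Shox2, 0.41 for Maf, 0.41 for Pou4f3, 0.31 for Etv5 and -0.47 for Etv1, with every Tlx3cko library on the same side of that control. For Etv4 it was -0.03, with 2 Tlx3cko libraries above and 1 below. A single library on one side gives no replicate check for these ratios.

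Neurons of the touch and position classes were marked by 11 A-fibre genes, all of which had positive log2 fold changes. Of these, 4 rose past the threshold (Nefh, Pvalb, Calb1 and Cntnap2), and the median log2 fold change of the 11 was 0.27. The number that rose was 2 with sex as a covariate, 1 without control replicate 2 or 3, and 2 without Tlx3cko replicate 2 or 3. The 11 genes summed to 41696, 37866 and 38873 normalized counts in control replicates 1, 2 and 3 and to between 48208 and 50235 in Tlx3cko libraries, a ratio of means of 1.24. The ratio of Tlx3cko to control means was 1.76 for Meis2, 1.66 for Mafa, 1.44 for Shox2, 1.22 for Etv5, 1.22 for Pou4f3 and 1.15 for Maf. It was 0.78 for Etv1, 0.70 for Etv4 and 0.55 for Pou4f2, which went the other way. Markers of nonpeptidergic classes and of C-fibre touch neurons (C-LTMR) were lower, with 8 of 8 genes of the MrgprD class, 9 of 9 of the NP2 and NP3 classes (marked by Mrgpra3 and Sst) and 4 of 5 of the C-LTMR class past the threshold. The study reported several of these genes from the same libraries, so these lists are not independent evidence. In the same order, the numbers past the threshold were 7, 9 and 3 with sex as a covariate. Without single libraries they were 7 to 8, 8 to 9 and 3 to 4. Peptidergic markers went up in 3 of 7 genes. The single one that went down, Trpm8 (edgeR adjusted p = 0.0462), lost its call in each of the 6 fits without 1 library, with the replicate block and with sex as a covariate (0.475). The part of these shifts between neuron classes in the values of the 9 genes was not tested.

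Markers of other tissues were also measured. Skeletal muscle markers summed to 1779, 503 and 88.5 normalized counts in control replicates 1, 2 and 3 and to between 1478 and 2776 in Tlx3cko libraries, so that control replicate 1, which had the highest control values of Mafa and Meis2, also had the highest control value of these 5 genes and lay above the lowest Tlx3cko library. Of the 5, Myh4 alone passed the threshold, and 0 did with DESeq2 or without control replicate 2, against 4 without control replicate 1 or with sex as a covariate. Fibroblast markers summed to 5236 ± 431 normalized counts in control and 3918 ± 152 under Tlx3cko (SD, n = 3 each), and 4 of 6 genes fell past the threshold. This count was 0 with sex as a covariate, 2 without control replicate 1 and 1 without any other single library. The summed satellite glia and Schwann cell markers had ratios of means of 1.06 and 1.03. None of 7 satellite glia genes passed in the edgeR fit (1 at an unadjusted p under 0.05, 1 with DESeq2, 0 with limma-voom), and none of 7 Schwann cell genes did (3, 3 and 1 by the same measures). Of 8 genes of endothelial cells and pericytes, Pecam1 rose past the threshold, a call lost without control replicate 3 or Tlx3cko replicate 2 or 3 and with sex as a covariate (edgeR adjusted p up to 0.0991). None of 10 macrophage genes and none of 5 blood genes did (3 and 1 at an unadjusted p under 0.05, 0 with DESeq2 and limma-voom), and of 7 spinal cord genes 2 had enough counts to be tested, of which Pax2 fell. The call on Pax2 was lost without control replicate 2 (edgeR adjusted p = 0.0919), without Tlx3cko replicate 2 (0.0614) and with sex as a covariate (0.205). The spinal cord genes summed to between 61.7 and 151 normalized counts per library, and 1 of them had no count in any library. The part of muscle and fibroblast RNA in the values of Mafa, Meis2 and the other genes was not tested.

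Around the 9 genes, 7 lists of relatives and pathway genes held 86 further genes that were tested. Of these, 5 rose and 7 fell past the threshold, with a median log2 fold change of -0.05. The share past the threshold was 14.0%, against 4.25% of all genes tested. The lists were chosen with earlier results of these data known. In the Ets family, 1 of 17 further genes passed, namely Fli1, a factor of endothelial and blood cells, which fell from 96.4 ± 8.68 to 45.9 ± 6.38 normalized counts (log2 fold change -1.07, edgeR adjusted p = 0.0160). Its call was lost without control replicate 2 (edgeR adjusted p = 0.0758), without Tlx3cko replicate 1 (0.0527) and with sex as a covariate (0.195). No further gene of the POU list (8 tested) or of the TALE list (10 tested) passed in the edgeR fit (2 and 1 at an unadjusted p under 0.05, 0 with DESeq2 and limma-voom).

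Neurotrophic factor receptors, which act upstream of the PEA3 genes in sensory neurons, split in both directions, with 2 of 9 higher and 2 lower. Gfra3, the artemin co-receptor, rose by 1.75 on the log2 scale, and the neurturin co-receptor Gfra2 fell by 1.30 on that scale. Ret, the shared signaling receptor, fell from 17957 ± 1891 to 14267 ± 690 normalized counts (log2 fold change -0.33, edgeR adjusted p = 0.0381), a call lost in 4 of 6 fits without 1 library (without control replicate 2 or 3 or Tlx3cko replicate 2 or 3) and in the fit with the replicate block, with a highest adjusted p of 0.186. Of 12 feedback genes induced by Mapk signaling, Spred1 and Phlda1 rose, with log2 fold changes of 0.36 and 0.65 (adjusted p = 0.0381 and 0.0245 from edgeR). Each of these calls was kept in only 1 of the 6 fits without 1 library: Spred1 without control replicate 1, and Phlda1 without Tlx3cko replicate 1. The remaining 10, including Dusp6 and Spry4, did not pass. Among 25 other transcription factors of DRG neurons, Tlx3, Runx1, Isl2 and Casz1 fell, the call on Casz1 being lost without control replicate 2 or Tlx3cko replicate 1 or 3 and with sex as a covariate. Runx1, which directs nonpeptidergic nociceptors, fell from 1451 ± 231 to 675 ± 60.8 normalized counts, and Isl2 from 3476 ± 406 to 1959 ± 111 (SD, n = 3 each).

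Over the 6 libraries, the genes whose mean-centered log2 profile lay closest to that of Pou4f2 among 11636 genes with at least 100 normalized counts on average were Dapk1 and Tmem72, at root mean square distances of 0.0972 and 0.103. Dapk1 had 2347 normalized counts on average in control and 1233 in Tlx3cko DRGs, and Tmem72 had 778 and 457. Closest to Meis2 were Cadm2 and Kazald1, at distances of 0.0604 and 0.0767, with control and Tlx3cko means of 357 and 607 for Cadm2 and 108 and 191 for Kazald1. The closest protein-coding neighbors on the chromosome did not pass the threshold. For Pou4f2 these were Rbmxl1, 68.6 kb away (370 ± 14.5 and 336 ± 31.3 normalized counts), and Ttc29, 38.7 kb away (15.8 ± 11.8 and 6.50 ± 2.39). For Meis2, BC052040 at 84.3 kb had 44.9 ± 8.47 and 58.8 ± 15.6 (SD, n = 3 each). None of the 16 tested neighbors of the 9 genes passed the threshold in the edgeR fit (1 at an unadjusted p under 0.05, 0 with DESeq2 and limma-voom).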

How the data were processed

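RNA of DRGs was sequenced, with 3 mice per genotype. The authors deposited raw read counts per gene, without normalization. The submitters' processing notes name STAR 2.5.2a and the build mm10. The counting program and its use of strand are not given in the sources used here. Gene names, positions and exonic lengths came from GENCODE M21 (GRCm38), which named 47224 of 47937 rows, and promoters from RefSeq.

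Genes with at least 10 counts in total (20006) were normalized by TMM and tested in R 4.3.3 with edgeR 4.0.16 (glmQLFit, glmQLFTest), comparing genotypes without covariates. P-values were adjusted by Benjamini-Hochberg over all of them, with a threshold of 0.05. Standard errors were derived from the fold change and F. With 3 against 3, an exact permutation test of a single gene cannot go below p = 0.1, so none is given. The fit was checked on simulated counts. Alternatives used limma 3.58.1, DESeq2 1.42.0, other normalizations and filters, the replicate number as a block, sex as a covariate, and each library left out. The members, lists and rules were chosen with earlier results of these data known. Named were the members, their paralogues, list genes past the threshold (up to 6 a list), and for each member past it the 2 genes closest in profile. Some genes under this rule are not reported here.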

Additional observations from a re-analysis of the deposited data

How the results depend on the processing

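Pou4f2 and Meis2 kept direction and call in all 14 alternatives, with adjusted p of at most 0.0224 and 0.0339. These fits were not equal checks where sex is concerned. Without control replicate 3, genotype and sex cannot be told apart. With sex as a covariate, the genotype difference rested on control replicate 3 as the only control. No member changed sign in any alternative. Mafa passed without the filter on low counts (log2 fold change 0.74), with DESeq2 (0.74), with limma-voom (0.81) and with the replicate block (0.78), and ranged from 0.60 to 1.06 without single libraries. Shox2 passed without the filter (0.52) and with DESeq2 (0.53), ranging from 0.38 to 0.65 without single libraries. Etv5 passed without the filter (0.28), with filterByExpr (0.29) and with DESeq2 (0.29), and Etv1 without the filter (-0.37), ranging from -0.53 to -0.24 without single libraries. The number of members that rose was 1 in the reported fit, 4 without the filter and with DESeq2, and 2 with filterByExpr, limma-voom and the replicate block. It was between 1 and 3 without single libraries. Of the 86 other list genes, 2 rose and 4 fell with sex as a covariate, and between 2 and 6 rose and 3 and 9 fell without single libraries. The number of members that fell was 1, and 2 without the filter, and between 1 and 2 without single libraries. The cause was not tested.

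Replicate numbers do not pair the samples: correlations of same-numbered deviations from the group means were -0.135, -0.00947 and -0.112, and no sample correlated best with its own number. The replicate block moved 1 member, Mafa, past the threshold. Over all genes, calls fell to 153 higher and 334 lower with sex as a covariate and rose to 671 and 858 without the filter. Etv4 had 30 to 83 counts per library, the fewest of the members.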
